A study of Mus musculus with 6 samples.

Results

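Macrophage genes were examined in the colon of mice fed a high-fat, high-cholesterol diet (HFCD). The 10 genes were taken by name, as Csf1r, Adgre1, Cd68, Lyz2, Itgax, Mrc1, Cd163, C1qa, C1qb and C1qc, and they include genes of resident and recruited macrophages, the chains of complement C1q and scavenger receptors. The count tables hold 24517 genes, all 10 of these were found there, and all 10 were among the 16347 genes tested, with from 128 to 19232 counts in a library.

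The RNA came from whole colon of 3 Nsd2fl/fl and 3 Nsd2ΔIE mice on a C57BL/6J background, and both groups had received HFCD, for 16 weeks per the labels and for somewhat longer per the methods. In Nsd2ΔIE mice the histone methyltransferase NSD2 was deleted with Villin-Cre, which acts in the intestinal epithelium and not in macrophages, and the Nsd2fl/fl mice carried the floxed alleles as controls. The methods describe male littermates that were young adults when the diet began. Xist, the transcript of the inactive X chromosome, however had 0 to 4 counts in the Nsd2fl/fl libraries and 21217 to 24234 counts in the Nsd2ΔIE libraries. Genotype and the male or female pattern of the libraries therefore cannot be told apart in any value below.

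Macrophages of the gut wall arise mainly from blood monocytes, and some live long in the tissue. They depend on CSF1 signalling through CSF1R, take up dying cells and microbes, and secrete complement C1q and lysozyme. Those of the lamina propria lie under the epithelium, while those of the muscle layer lie beside smooth muscle and enteric neurons and are known for CD163.

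Library totals were between 38041832 and 38604680 counts, and an upper limit of 3 counts for a gene without reads equals at most 0.0789 CPM (counts scaled by library totals alone). All CPM levels below carry the TMM factors as well. Nsd2, the targeted gene, had 47.8, 59.1 and 68.9 CPM in the Nsd2fl/fl libraries and 24.5, 23.1 and 27.5 CPM in the Nsd2ΔIE libraries (log2 fold change -1.23, edgeR adjusted p = 0.302). The libraries also differed along a line that crossed the groups. Hoxb13, a gene of the hindmost colon, stood at 310 to 365 CPM in replicates 1 and 3 of Nsd2fl/fl and replicate 1 of Nsd2ΔIE and at 0.706 to 26.2 CPM in the other libraries, and the first principal component, with 51% of the variance, made the same split. Labels of the samples number 3 per group without saying which animal each came from, so p-values measure the spread between these samples. In whole tissue, fewer cells of a type and less RNA per cell cannot be told apart.

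Levels of the 10 genes were first compared with one another per length, as deposited FPKM (reads scaled to gene length and library total). Lyz2, which encodes the lysozyme of macrophages and granulocytes, was the most abundant by far, with 394 ± 81.3 FPKM (SD, n = 6 libraries). Its lowest library, at 261 FPKM, lay above the highest value of any other member. The C1q chains followed, with C1qb at 66.8 ± 10.4 FPKM, C1qa at 54.6 ± 9.49 FPKM and C1qc at 50.6 ± 6.33 FPKM (SD, n = 6 each). The ranges of these neighbours overlapped, and all of them lay above those of the remaining members. Csf1r, the receptor for CSF1 and IL-34, had 14.6 ± 2.01 FPKM. Cd68, a lysosomal glycoprotein of phagocytes, had 10.2 ± 1.91 FPKM, Adgre1, which encodes F4/80, had 7.8 ± 1.71 FPKM, and Mrc1, the mannose receptor CD206, had 5.98 ± 1.19 FPKM (SD, n = 6 each). In this group of 4 genes each overlapped the next in the order. Itgax, the CD11c integrin that dendritic cells also carry, and Cd163, the haemoglobin scavenger receptor, were lowest, at 3.45 ± 0.502 and 2.36 ± 1.04 FPKM, and their ranges overlapped as well.

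**Figure D1:**
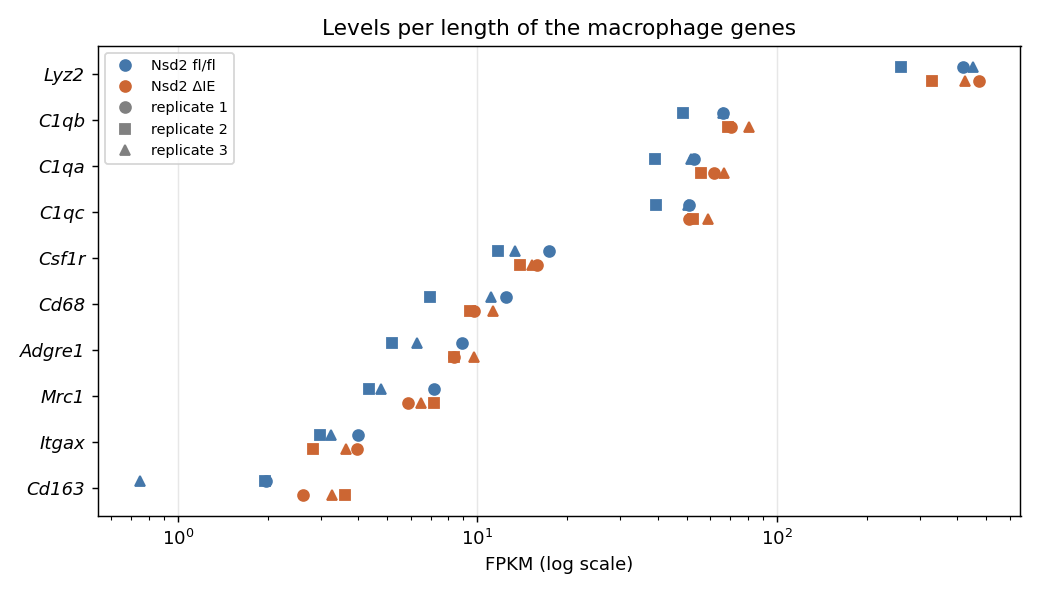
FPKM of the 10 macrophage genes (rows) on a log axis, with a point for each library, blue for Nsd2fl/fl, orange for Nsd2ΔIE and a marker shape for each replicate number. Lyz2 lies between 261 and 472 FPKM, the C1q chains between 39.1 and 80.7 FPKM, and Cd163 between 0.746 and 3.61 FPKM.

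The comparison of Nsd2ΔIE with Nsd2fl/fl asked whether loss of NSD2 in the epithelium went with a different amount of macrophage RNA in the colon. No member passed the test after adjustment. Of the 10 genes, 0 had an adjusted p under 0.05 (edgeR quasi-likelihood test), where 0.0306% of all genes tested did, and 1, Cd163, had an unadjusted p under 0.05, as did 11.1% of all genes tested. DESeq2 gave 0 members as well. At the threshold of the study, meaning p under 0.05 before adjustment and a log2 fold change beyond 0.322, 1 member was higher, against 8.05% of all genes tested, and 0 were lower, against 2.21%. In 1 member, again Cd163, every Nsd2ΔIE library lay above every Nsd2fl/fl library, as in 11.4% of all genes tested, and 0 members had all Nsd2ΔIE libraries below, as in 7.28%. These counts are near the background of the whole table. The median log2 fold change of the 10 genes was 0.11, beside -0.04 for all genes tested, and it was 0.01 without Nsd2fl/fl replicate 2.

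Cd163 encodes a receptor that takes up haemoglobin bound to haptoglobin. Its level was 8.75, 9.55 and 3.59 CPM in Nsd2fl/fl replicates 1 to 3 and 11.5, 15.8 and 13.7 CPM in Nsd2ΔIE replicates 1 to 3. The groups did not overlap, and Nsd2fl/fl replicate 3 stood far below the other libraries. The Nsd2fl/fl mean was 7.3 ± 3.23 CPM and the Nsd2ΔIE mean 13.7 ± 2.16 CPM (SD, 3 libraries each), a fitted fold change of 1.87 with a 95% confidence interval of 1.03 to 3.42. On the log2 scale this was 0.91 (SE 0.364), and the edgeR p was 0.0425 before and 0.431 after adjustment. Without Nsd2fl/fl replicate 3 the log2 fold change was 0.585, with an edgeR p of 0.0233 before and 0.542 after adjustment. Before adjustment the edgeR p was 0.0552, 0.113 and 0.0853 without Nsd2fl/fl replicate 1, Nsd2ΔIE replicate 2 and Nsd2ΔIE replicate 3. It was 0.0257 and 0.05 without Nsd2fl/fl replicate 2 and Nsd2ΔIE replicate 1, all in the fits across all genes. Among the libraries with high Hoxb13 the log2 difference was 1.03, and among those with low Hoxb13 it was 0.62.

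Markers of the muscle layer moved with the groups in the same direction as Cd163. All 9 smooth muscle markers had fitted changes above 0. At the threshold of the study 7 of them were higher, beside 8.05% of all genes tested. Their summed level was 1560 to 4390 CPM over the Nsd2fl/fl libraries and 5460 to 11700 CPM in Nsd2ΔIE. All 8 markers of enteric neurons and glia were higher at that threshold too. Their sums were 41.2 to 65.1 CPM over the Nsd2fl/fl libraries and 86.3 to 115 CPM in Nsd2ΔIE. Within Nsd2fl/fl the orders differed, since smooth muscle markers were lowest in replicate 2 and Cd163 in replicate 3. The part of the muscle layer in the Cd163 values was not tested.

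Mrc1, the other scavenger receptor of tissue macrophages among the 10, binds mannose-bearing glycoproteins and is also made by some endothelial cells. It had 37.6, 25.1 and 27.2 CPM in Nsd2fl/fl and 30.4, 37.1 and 32 CPM in Nsd2ΔIE. The highest value belonged to Nsd2fl/fl replicate 1, and the groups overlapped. Its log2 fold change was 0.15 (SE 0.179, 95% confidence interval -0.28 to 0.57), with an adjusted p of 0.791. Without Nsd2fl/fl replicate 1 it was 0.339 (unadjusted p = 0.0442, adjusted p = 0.295), and without Nsd2fl/fl replicate 2 it was 0.0289.

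Csf1r and Adgre1 are the genes most often used to mark mouse macrophages. Csf1r had 66.5, 49 and 55.4 CPM in Nsd2fl/fl and 59.7, 52.3 and 54.7 CPM in Nsd2ΔIE. The Nsd2ΔIE values all fell inside the range of Nsd2fl/fl. The log2 fold change was -0.04 (SE 0.137, adjusted p = 0.937), with a sign that turned under upper-quartile factors and library totals, and its 95% confidence interval, -0.36 to 0.29, spans folds of 0.778 to 1.22. Exons of Hmgxb3 on the other strand cover 15.1% of the exon bases of Csf1r (18:61105572-61131139 in GRCm38.p6), and whether strand was used in counting was not given. Adgre1 had 29.4, 18.8 and 22.6 CPM in Nsd2fl/fl and 27.2, 27.2 and 30.2 CPM in Nsd2ΔIE. Nsd2fl/fl replicate 1 was as high as the Nsd2ΔIE libraries, and the other Nsd2fl/fl libraries were lower. The log2 fold change of Adgre1 was 0.26 (SE 0.177, 95% confidence interval -0.16 to 0.68), with an adjusted p of 0.638. Without Nsd2fl/fl replicate 1 it was 0.445 (unadjusted p = 0.0174, adjusted p = 0.213), and without Nsd2fl/fl replicate 2 it was 0.116.

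Cd68 and Itgax mark phagocytes more broadly. Cd68 had 15.3, 9.38 and 14.7 CPM in Nsd2fl/fl and 11.8, 11.5 and 13 CPM in Nsd2ΔIE. Itgax had 17.1, 14 and 15.1 CPM in Nsd2fl/fl and 16.7, 11.9 and 14.6 CPM in Nsd2ΔIE. In both genes the groups overlapped widely, and Nsd2fl/fl replicate 1 was the highest library. The log2 fold changes were -0.12 (SE 0.212, adjusted p = 0.854) for Cd68 and -0.1 (SE 0.171, adjusted p = 0.853) for Itgax, and the sign of both turned when library totals replaced the TMM factors. Dendritic cell markers, which bear on Itgax, had 0 of 8 genes with an unadjusted p under 0.05, where 11.1% of all genes tested had one, and a median log2 fold change of 0.25.

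Lyz2 had 439, 299 and 513 CPM in Nsd2fl/fl and 485, 341 and 417 CPM in Nsd2ΔIE. Libraries with high Hoxb13 held 439 to 513 CPM and the others 299 to 417 CPM, so the levels did not overlap across that split, which is a description without a test, while they did across the genotypes. The log2 fold change between genotypes was -0.01 (SE 0.237, 95% confidence interval -0.57 to 0.55), with an adjusted p of 0.992, and its sign turned with upper-quartile factors or library totals. Of 8 neutrophil markers, which bear on Lyz2, 3 passed the filter on low counts. Among these, Ly6g had 115, 32.4 and 186 CPM in Nsd2fl/fl and 112, 0.833 and 6.6 CPM in Nsd2ΔIE, highest in the same 3 libraries as Lyz2, while Csf3r had 81 to 159 counts and Retnlg 21 to 80 counts in a library. The other 5 had at most 12 counts, with S100a8 at 0 to 8 and S100a9 at 0 to 9. In replicate 1 of Nsd2fl/fl and of Nsd2ΔIE, Ly6g had 4438 and 4437 counts, S100a8 0 and 0, and S100a9 2 and 0. Ly6g thus did not move with the other neutrophil markers. The summed level of the list was 36.6 to 190 CPM over the Nsd2fl/fl libraries and 4.97 to 115 CPM in Nsd2ΔIE. Most of it was Ly6g, except in Nsd2ΔIE replicate 2, so the sum mainly follows 1 gene. The part of neutrophils in the Lyz2 values was not tested. Within the libraries of high Hoxb13 the log2 difference of Lyz2 between genotypes was 0.03, and within those of low Hoxb13 it was 0.33. Lyz1, the lysozyme of Paneth cells, lies 5522 bases from Lyz2 on chromosome 10 (10:117277541-117282272 for Lyz2), and 15.4% of the 50-base windows of the Lyz2 transcript also occur in Lyz1. Counts of Lyz1 were 2.04% to 3.9% of those of Lyz2, so the exact division of reads between the genes is uncertain but small beside the level of Lyz2.

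**Figure D2:**
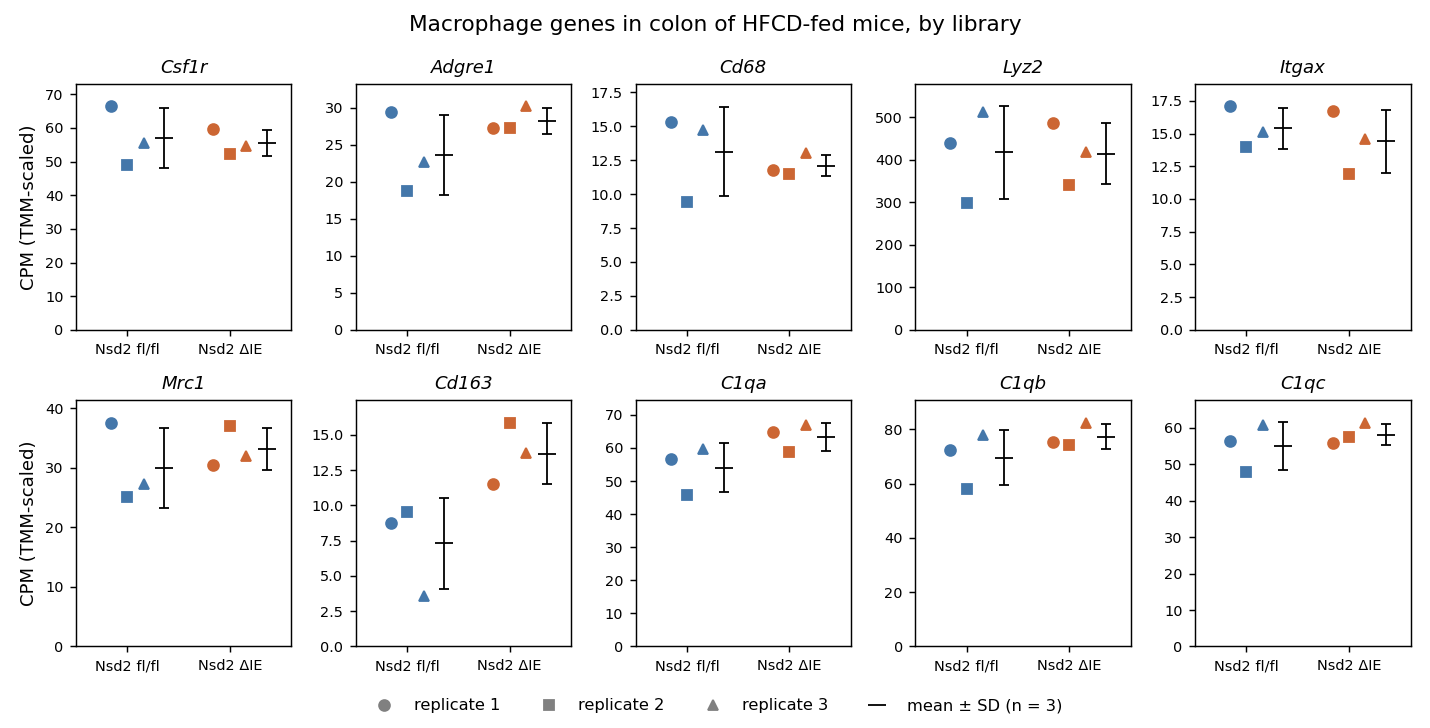
CPM scaled by TMM factors (vertical axes from 0) in each library for the 10 macrophage genes, with the mean ± SD of the 3 libraries of a group beside the points. Cd163 is the gene in which all Nsd2ΔIE libraries (11.5 to 15.8 CPM) lie above all Nsd2fl/fl libraries (3.59 to 9.55 CPM), and in the other 9 genes the groups overlap.

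The genes C1qa, C1qb and C1qc encode the chains of complement C1q, which binds antibody complexes and dying cells and is assembled from equal numbers of each chain. They form a cluster on the minus strand of chromosome 4 in GRCm38.p6, with C1qb at 4:136880126-136886200, C1qc at 4:136889801-136892936 and C1qa at 4:136895916-136898844. The gaps between neighbours are 3600 and 2979 bases. Their transcripts share 0 windows of 50 bases, so reads can be told apart. The promoters of C1qb and C1qc are shown because these genes had nearly the same profile over the libraries, with that of Cd163 as the member with another profile. Each line gives the 250 bases before the start site listed for the promoter in GRCm38.p6, from 5′ to 3′ on the strand of the gene. In C1qc and Cd163 (RefSeq start at 6:124304636) this site lies inside the RefSeq gene span, so the stretch takes in the first bases of the gene. Capitals mark the core motif of PU.1, the lineage factor of macrophages (GAGGAA, or TTCCTC where it reads on the opposite strand).
C1qb (chr4:136886201-136886450, minus strand): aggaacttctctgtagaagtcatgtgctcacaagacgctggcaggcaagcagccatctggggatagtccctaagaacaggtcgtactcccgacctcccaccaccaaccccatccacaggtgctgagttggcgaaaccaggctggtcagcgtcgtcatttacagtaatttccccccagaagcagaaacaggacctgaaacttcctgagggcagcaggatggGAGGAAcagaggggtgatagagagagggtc
C1qc (chr4:136892915-136893164, minus strand): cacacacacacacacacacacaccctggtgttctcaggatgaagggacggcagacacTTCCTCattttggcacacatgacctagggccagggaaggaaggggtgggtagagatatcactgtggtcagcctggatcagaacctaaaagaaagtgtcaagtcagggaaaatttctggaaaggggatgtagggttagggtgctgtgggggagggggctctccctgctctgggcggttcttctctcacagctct
Cd163 (chr6:124304401-124304650, plus strand): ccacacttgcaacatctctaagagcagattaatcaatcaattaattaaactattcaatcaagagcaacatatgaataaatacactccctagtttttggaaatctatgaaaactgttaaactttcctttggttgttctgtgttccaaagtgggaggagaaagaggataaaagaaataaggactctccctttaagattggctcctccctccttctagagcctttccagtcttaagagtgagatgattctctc

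Promoter sequences were available for 7 of the 10 genes, with those of Adgre1, Csf1r and C1qa missing. In windows from 250 bases before to 50 bases after the start, the PU.1 core on either strand was found in 4 of these 7, Cd68, Mrc1, C1qb and C1qc, and in 28.3% of all 32851 promoters. The C/EBP motif TTNNGNAA occurred in 6 of the 7 and in 40.7% of all promoters, the AP-1 motif TGANTCA in 2 and in 7.81%, and TATAAA in 0 and in 13.6%. All motifs were searched on both strands, in these promoters no match overlapped one of another motif, and matches describe the letters only.

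C1qa had 56.7, 45.7 and 59.8 CPM in Nsd2fl/fl and 64.8, 58.7 and 66.8 CPM in Nsd2ΔIE. C1qb had 72.4, 58.2 and 77.8 CPM in Nsd2fl/fl and 75.5, 74.1 and 82.5 CPM in Nsd2ΔIE. C1qc had 56.4, 47.9 and 60.7 CPM in Nsd2fl/fl and 55.8, 57.5 and 61.3 CPM in Nsd2ΔIE. In all 3 chains Nsd2fl/fl replicate 2 was lowest and Nsd2ΔIE replicate 3 highest, and the groups overlapped. The log2 fold changes were 0.23 (SE 0.131, adjusted p = 0.574) for C1qa, 0.16 (SE 0.133, adjusted p = 0.704) for C1qb and 0.08 (SE 0.119, adjusted p = 0.821) for C1qc. Without Nsd2fl/fl replicate 2 they were 0.12, 0.04 and -0.01 in that order. With library totals in place of TMM factors, C1qa had a log2 fold change of 0.356 and an unadjusted p of 0.0492 (adjusted p = 0.425).

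**Figure D3:**
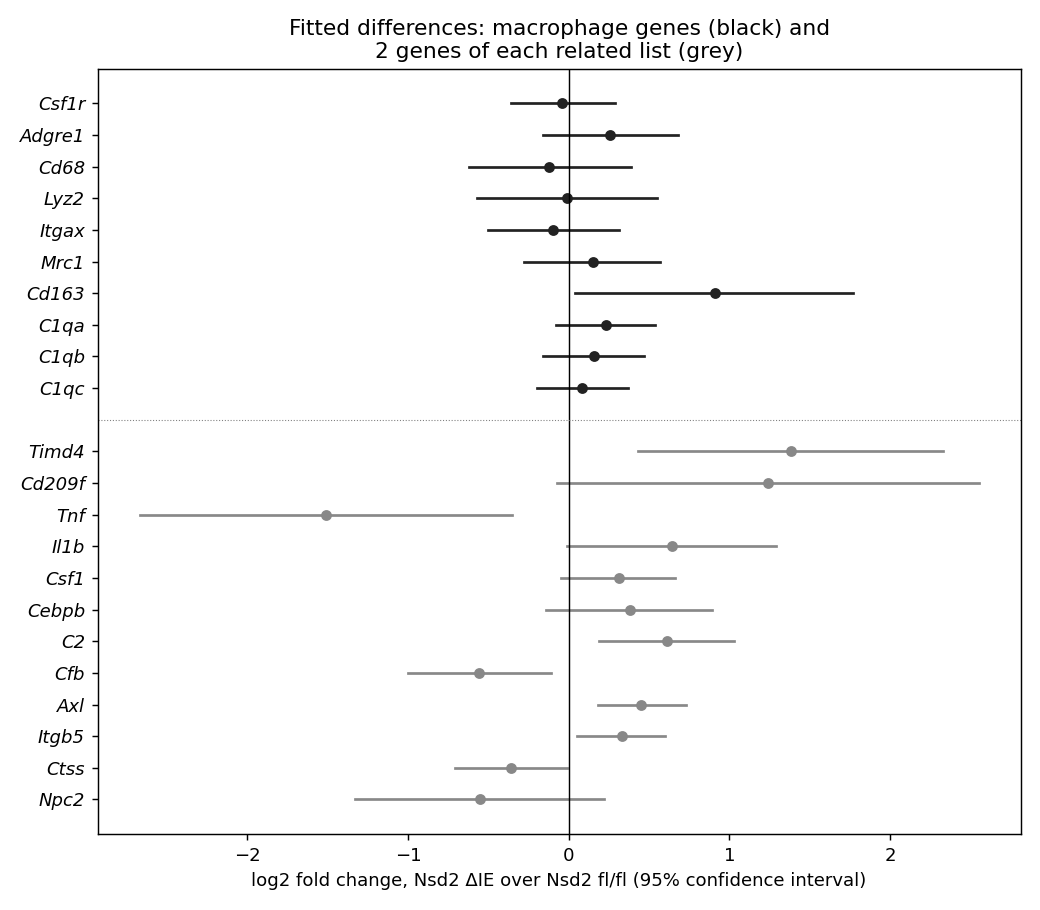
Fitted log2 fold changes of Nsd2ΔIE over Nsd2fl/fl with 95% confidence intervals (horizontal axis) for the 10 macrophage genes in black and for the 2 genes of smallest p in each of 6 related lists in grey. Among the macrophage genes, Cd163 at 0.91 (interval 0.04 to 1.77) is the one whose interval does not cross 0.

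Ratios of counts within a library do not depend on scaling and were compared between the groups. The ratio of C1qa to C1qc was 1.01, 0.955 and 0.985 in the Nsd2fl/fl libraries and 1.16, 1.02 and 1.09 in the Nsd2ΔIE libraries. That of C1qa to C1qb was 0.783, 0.787 and 0.768 in the Nsd2fl/fl libraries and 0.858, 0.792 and 0.811 in the Nsd2ΔIE libraries, and that of C1qb to C1qc was 1.28, 1.21 and 1.28 in the Nsd2fl/fl libraries and 1.35, 1.29 and 1.34 in the Nsd2ΔIE libraries. In each of the 3 ratios all Nsd2ΔIE libraries were higher, but the nearest libraries of the groups lay closer than a single library's counting error. The log2 ratio of C1qa to C1qc was 0.0073 in Nsd2fl/fl replicate 1 and 0.0288 in Nsd2ΔIE replicate 2. A library's counting error there was at most 0.0501. Between the group means the log2 differences were 0.15, 0.07 and 0.08, with counting errors of 0.0357, 0.0337 and 0.0339 for these differences. An exact permutation test, two-sided, gave p = 0.1 for each of the 3 ratios, the smallest that 3 against 3 libraries allow, and 0.1 after adjustment over the 3, which are not independent. The difference for C1qa to C1qb was 0.0403 with Nsd2ΔIE replicate 1 left out, and that for C1qb to C1qc was 0.0498 with Nsd2fl/fl replicate 2 left out. Over all 6 libraries the chains kept close to each other, since the highest ratio was at most 1.22 times the lowest.

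The other 9 members were also set against Csf1r in the same library. Adgre1 stood at 0.442, 0.384 and 0.408 of Csf1r in the Nsd2fl/fl libraries and at 0.456, 0.52 and 0.552 in the Nsd2ΔIE libraries. C1qa stood at 0.853, 0.934 and 1.08 of Csf1r in the Nsd2fl/fl libraries and at 1.09, 1.12 and 1.22 in the Nsd2ΔIE libraries. Both ratios were higher in every Nsd2ΔIE library, with log2 differences of 0.31 and 0.26 (exact permutation test, p = 0.1 each, 0.45 after adjustment over the 9 ratios). In both, the nearest libraries of the groups again lay closer than a single library's counting error, at most 0.0658 and 0.0499 in log2. Cd163 relative to Csf1r was 0.132, 0.195 and 0.0649 in the Nsd2fl/fl libraries and 0.193, 0.303 and 0.25 in the Nsd2ΔIE libraries. Here the groups overlapped, and the log2 difference was 1.05 (exact permutation test, p = 0.2, adjusted p = 0.45). Leaving out Nsd2fl/fl replicate 3 gave 0.611, and leaving out replicate 2 of that group gave 1.4. For the remaining 6 genes the log2 differences lay between -0.08 for Itgax and 0.19 for Mrc1 and C1qb, with exact p-values from 0.2 to 0.9.

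**Figure D4:**
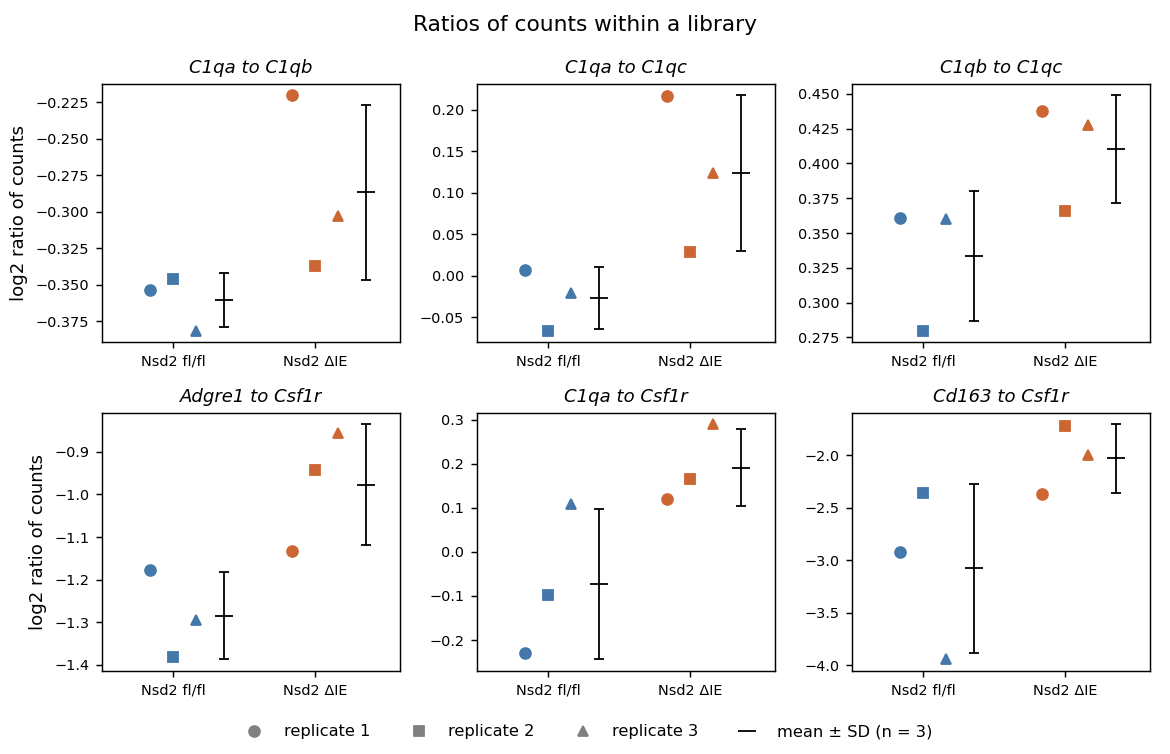
Log2 ratios of counts within each library (vertical axes, which do not start at 0 and differ between panels) for the C1q chains and for Adgre1, C1qa and Cd163 relative to Csf1r, with the mean ± SD of the 3 libraries of a group. All Nsd2ΔIE points lie above all Nsd2fl/fl points except in the panel of Cd163 to Csf1r, where the groups overlap. In the panels without overlap the nearest points of the groups lie closer than a single library's counting error.

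Members varied unequally between libraries. Over the 6 libraries the SD of log2 CPM ran from 0.128 for C1qc, 0.154 for Csf1r and 0.173 for C1qb to 0.301 for Lyz2 and 0.759 for Cd163. Nsd2fl/fl replicate 2 was the lowest library in 8 of the 10 genes, the exceptions being Itgax and Cd163. Pan-leukocyte markers such as Ptprc were also lowest there, with a sum of 137 CPM beside 174 to 241 CPM in the other libraries, as were smooth muscle markers. Epithelial markers were highest there, at 21900 CPM beside 12700 to 15700 CPM. The share of epithelium in that sample and its part in the low macrophage values were not tested. Itgax excepted, the SD of log2 CPM was wider in Nsd2fl/fl than in Nsd2ΔIE, for example 0.394 against 0.0905 for Cd68 and 0.78 against 0.23 for Cd163. Between the genotypes, 0 of 5 pan-leukocyte markers had an unadjusted p under 0.05, beside the same 11.1% of all genes, with a median log2 fold change of -0.09.

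**Figure D5:**
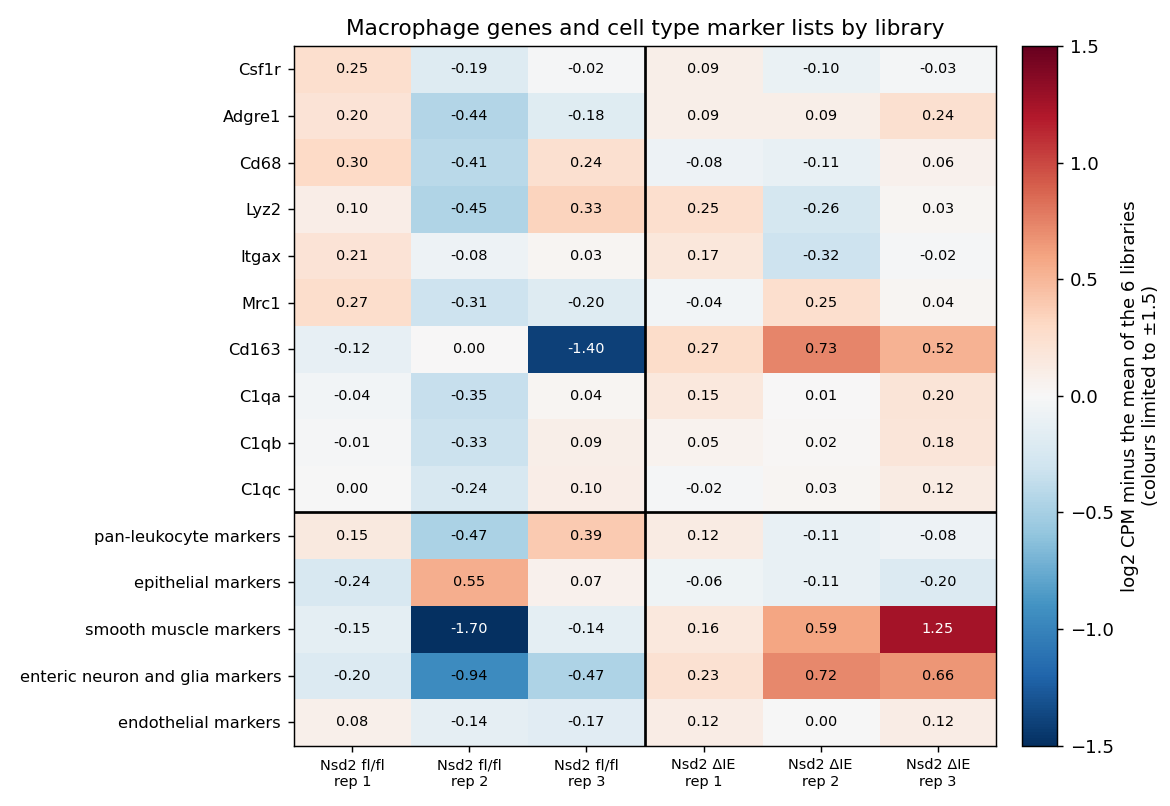
Log2 CPM of each macrophage gene minus its mean over the 6 libraries, and the same averaged over 5 lists of cell type markers (rows), with libraries as columns and colours limited to ±1.5. Nsd2fl/fl replicate 2 is low in most macrophage genes and in the smooth muscle markers (-1.70) and high in the epithelial markers (0.55), and Cd163 is at -1.40 in Nsd2fl/fl replicate 3.

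Profiles over the 6 libraries were compared by the root mean square distance of centred log2 CPM. The nearest of 9314 other genes to the mean profile of the C1q chains were Ggta1 (0.0315), Pygb (0.0372), Icam1 (0.0444), Septin1 (0.0474) and Slc25a26 (0.0495). The C1q chains themselves lay 0.0136 to 0.0477 from their mean, a range that takes in all of these genes but Slc25a26. For the mean profile of all 10 members the nearest of 9504 genes were Bmyc (0.0311), Msrb2 (0.0372), Gatd3a (0.0393), Zfp94 (0.0434) and Parva (0.0441). The members themselves lay 0.0929 to 0.606 from that mean, each farther than these genes. In both comparisons the named genes were picked as the smallest distances among all candidates over 6 libraries, and the members were not picked by distance. That they lie as near as members or nearer is therefore no sign of a shared cell type or function.

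Other genes of macrophage biology were counted in 6 lists, and in every list 0 genes had an adjusted p under 0.05. At the threshold of the study 8.05% of all genes tested were higher and 2.21% lower, the shares to set beside each list. Of the other resident macrophage genes, 14 of 15 were tested, 1 was higher and 0 were lower at the threshold of the study, and the median log2 fold change was 0.1. The higher one was Timd4, a receptor for phosphatidylserine on long-lived macrophages, at 0.26, 0.311 and 0.253 CPM in Nsd2fl/fl and 0.833, 0.479 and 0.844 CPM in Nsd2ΔIE (log2 fold change 1.38, SE 0.399, adjusted p = 0.317). Its counts were few, from 9 to 35 in a library. Cd209f, a C-type lectin gene, had 1.53, 0.65 and 0.337 CPM in Nsd2fl/fl and 2.45, 1.67 and 1.88 CPM in Nsd2ΔIE, and its log2 fold change was 1.24 (SE 0.55, adjusted p = 0.465). As with Cd163, no Nsd2ΔIE library was as low as any Nsd2fl/fl library in either gene. Nsd2fl/fl replicate 3 was clearly the lowest in Cd209f, while Timd4 had nearly equal counts of 10, 11 and 9 in Nsd2fl/fl. Of the 14 genes tested in this list, 3 lay higher without overlap and 0 lower, beside 11.4% and 7.28% of all genes tested. Timd4 and Cd209f were named for the smallest p in their list.

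Of the monocyte and recruited macrophage genes, 9 of 12 were tested, 3 with a fitted change above 0 and 6 below, and the median was -0.31. Among those below, Plac8 (630 to 1840 CPM) and Nos2 (0.883 to 23.7 CPM) were highest in Nsd2fl/fl replicate 2, where epithelial markers were also highest. The part of the epithelium in these values and in the median was not tested. At the threshold of the study 0 were higher and 1 was lower, beside 8.05% and 2.21% of all genes tested. The lower one was the cytokine gene Tnf, at 0.805, 2.23 and 1.57 CPM in Nsd2fl/fl and 0.353, 0.53 and 0.723 CPM in Nsd2ΔIE (log2 fold change -1.51, SE 0.487, adjusted p = 0.352). Il1b, another inflammatory cytokine gene, had 1.79, 2.03 and 2.19 CPM in Nsd2fl/fl and 2.37, 3.08 and 3.95 CPM in Nsd2ΔIE (log2 fold change 0.64, SE 0.273, adjusted p = 0.452). These cytokine genes thus had values of opposite direction, both without overlap between the groups. Among all genes tested, 11.4% lay higher and 7.28% lower without overlap, and these 2 genes were named for the smallest p in their list.

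Growth factors, their receptors and lineage factors of macrophages had 9 of 10 genes tested, 0 past the threshold in either direction and a median of -0.04. For Csf1, the main ligand of CSF1R, the fitted log2 value was 0.31 (SE 0.149, adjusted p = 0.512), and for Cebpb, a lineage factor, it was 0.38 (SE 0.217, adjusted p = 0.581). Of the other complement genes, 13 of 15 were tested, 1 was higher and 1 lower, with a median of 0.16. C2, of the classical pathway that C1q starts, had 4.05, 4.63 and 4.63 CPM in Nsd2fl/fl and 6.64, 7.47 and 6.19 CPM in Nsd2ΔIE (log2 fold change 0.61, SE 0.177, adjusted p = 0.317). Cfb, its counterpart in the alternative pathway, had 137, 117 and 173 CPM in Nsd2fl/fl and 106, 106 and 79.3 CPM in Nsd2ΔIE (log2 fold change -0.56, SE 0.187, adjusted p = 0.364). The groups did not overlap in either gene, as in 11.4% (higher) and 7.28% (lower) of all genes tested. Both were named for the smallest p in their list.

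Of the other phagocytic receptors and adaptors, 16 of 17 were tested, and the median log2 fold change was 0.24. At the threshold of the study 3 were higher and 0 lower, beside 8.05% and 2.21% of all genes tested. Axl, a receptor for Gas6-coated dying cells, had 76.5, 66.6 and 61.2 CPM in Nsd2fl/fl and 96, 88.3 and 95 CPM in Nsd2ΔIE (log2 fold change 0.45, SE 0.115, adjusted p = 0.303). Itgb5, an integrin chain that also serves uptake of dying cells, stood at 68, 67.2 and 58.2 CPM in Nsd2fl/fl and 87.3, 73.7 and 81.8 CPM in Nsd2ΔIE (log2 fold change 0.33, SE 0.115, adjusted p = 0.38). The third, Cd36, a scavenger receptor that epithelial and fat cells also make, had a fitted change of 0.48 on the log2 scale (SE 0.2, adjusted p = 0.446) and was named after its values were seen. Adipocyte markers, with 6 of 7 tested, had summed levels of 25.3 to 34 CPM over the Nsd2fl/fl libraries and 47.5 to 105 CPM in Nsd2ΔIE, and their part in these values was not tested. Lysosome genes had 16 of 16 tested, 0 higher and 1 lower, with a median of -0.13. The lower one was Ctss, the cathepsin of antigen-presenting cells, at 365, 358 and 331 CPM in Nsd2fl/fl and 302, 291 and 230 CPM in Nsd2ΔIE (log2 fold change -0.36, SE 0.147, adjusted p = 0.439). Npc2, a cholesterol carrier of the lysosome, overlapped between the groups (log2 fold change -0.55, SE 0.325, adjusted p = 0.584).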

How the data were processed

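Total RNA of whole colon was sequenced in 3 Nsd2fl/fl and 3 Nsd2ΔIE samples, grouped by genotype and replicate number in the labels. For each library the authors deposited a whole-number count per gene symbol and an FPKM value, per the file headers, with no scaling of the counts. The submitters' processing notes name fastp, HISAT2, HTSeq, R 3.2.0 and mm10 (GRCm38), with neither roles nor use of strand.

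Counts were analysed with edgeR 4.0.16 (filterByExpr, TMM factors, quasi-likelihood test, two-sided, no covariates) in R 4.3.3. The p-values were adjusted by Benjamini-Hochberg over all 16347 genes, and adjusted p-values are from this fit unless another is named. An SE is the size of the log2 fold change over the square root of F. CPM values use TMM factors. The threshold of the study was p under 0.05 and a log2 fold change beyond 0.322. Profiles used log2(CPM + 0.5), genes averaging 1 or more in log2 CPM and having an SD no smaller than that of the profile.

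The members and the gene lists were chosen with earlier results of these data known. The genes named are all members, the 2 genes of smallest p in each list, label checks and the 5 nearest profiles. Genes named outside this rule, after their values were seen, are Cd36, Lyz1, Hoxb13, Hmgxb3, Ptprc, Plac8, Nos2 and the neutrophil markers. Total depth was alike in all libraries, and counting intervals cover counting error only. No 2 libraries matched within sampling noise (chi-square over degrees of freedom at least 35.5). Alternatives were other factors, DESeq2 1.42.0, limma 3.58.1 with voom weights, no filter, log2(FPKM + 1) and log2(FPKM + 0.1), the replicate number as a block, the split along the first principal component, and each library left out. Positions and overlaps came from RefSeq and GENCODE tables of GRCm38.p6.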

Additional observations from a re-analysis of the deposited data

How the results depend on the processing

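In the 16 alternatives of the count comparison, 0 of the 10 macrophage genes had an adjusted p under 0.05, also with DESeq2, which called 471 genes in all, and 0 members were lower at the threshold of the study. The number of members higher at that threshold was 1, and it was 2 with library totals alone, log2(FPKM + 1) and log2(FPKM + 0.1), where C1qa joined Cd163. It was 0 when the component split was a covariate, and the edgeR p of Cd163 was then 0.0533 in the test across all genes. Leaving out 1 library gave counts from 0 to 2. It was 2 without Nsd2fl/fl replicate 1, where Adgre1 and Mrc1 passed and Cd163 did not, and 0 without Nsd2ΔIE replicate 2 or replicate 3. The cause of these moves was not tested. Cd163 kept its direction in all 16 alternatives, with a log2 fold change from 0.585 to 1.14, an unadjusted p under 0.05 in 11 of them and adjusted p-values from 0.202 to 0.99. Without scaling factors the median over all genes shifted from -0.041 to 0.086 and that of the members from 0.11 to 0.23. Over all alternatives the median of the members was lowest, 0.01, when Nsd2fl/fl replicate 2 was left out and highest, 0.25, with log2(FPKM + 0.1).

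Several members near 0 changed sign. Csf1r went to 0.0312 with upper-quartile factors, 0.0838 with library totals, 0.0937 with log2(FPKM + 1), 0.101 with log2(FPKM + 0.1) and 0.0486 with the component split. Cd68 went to 0.00179, 0.0334 and 0.04 with totals and the 2 FPKM scales and to 0.0173 with the split, and Itgax to 0.0259, 0.0177 and 0.0213 with totals and the FPKM scales. Lyz2 went to 0.0572 with upper-quartile factors, 0.114 with totals, 0.139 on both FPKM scales and 0.185 with the split. Leaving out 1 library in turn gave -0.135 to 0.0878 for Csf1r, -0.313 to 0.00393 for Cd68, -0.212 to 0.0246 for Itgax, -0.2 to 0.166 for Lyz2 and -0.00794 to 0.16 for C1qc. The log2 ratios to Csf1r ranged from -0.185 to 0.0527 for Cd68, from -0.141 to 0.0105 for Itgax and from -0.0818 to 0.219 for Lyz2. The C1q chain ratios and the other ratios to Csf1r kept their direction. A test with 3 against 3 libraries cannot reach p = 0.05 by permutation, so those p-values say nothing of stability.

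Deviations from the group means correlated between the groups at 0.501, 0.643 and -0.166 for replicate numbers 1 to 3. These values cannot decide whether the numbers paired the samples, because unlike numbers were not compared. In the component split, too, libraries of number 1 fell together, as did those of number 2, and those of number 3 did not. With the replicate number as a block, Cd163 had a log2 fold change of 1.00 (adjusted p = 0.315 by edgeR), Lyz2 turned to 0.0118 and no call of a member changed. Every member had at least 128 counts in each library.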
